A study of Danio rerio with 2 samples.

Results

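The heat shock proteins and their partners outside the endoplasmic reticulum were examined in single cells of the zebrafish islet. The members were chosen by name, with earlier results of these data known. They are every gene whose name starts with hsp, dnaj or stip1 or reads cct and a digit, less *hspa5* and *hsp90b1*. Those left out are endoplasmic reticulum chaperones. Members also had at least 10 counts over the cells analysed. Of the 24900 genes listed, 90 have such a name, and 72 reached 10 counts. The other 18 did not, and 8 of them were at 0 in every cell. Just inside the minimum were *dnajc25* with 10 counts and *dnajb13* with 11 counts, and just outside it *dnajc16* with 7 counts and *dnajb5* and *dnajc18* with 6 counts each. The label "cytosolic and mitochondrial" does not hold for every member: 10 of the 72 were listed as J-proteins of the endoplasmic reticulum, and others may also lie there. *hspg2* and *hspbap1* have such names but are not folding chaperones.

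Molecular chaperones hold, fold and hand on other proteins. Hsp70 binds exposed stretches of a client and releases it with the help of J-proteins (Dnaj), which drive its ATP cycle, and of exchange factors such as Hsp110. Stip1 passes clients on to Hsp90, the ring-shaped chaperonin CCT folds actin and tubulin, and Hspd1 with Hspe1 folds proteins inside mitochondria. Some of these genes are switched on by heat shock factor when unfolded proteins build up (the inducible members), whereas others are also made without stress (the constitutive members). The split follows gene lists, which were chosen with earlier results of these data known, and was not measured here. A gene listed as constitutive, such as *stip1*, *hspd1* or *hspe1*, may also respond to heat shock. Endocrine cells fold their secreted hormones mainly in the endoplasmic reticulum, by other chaperones, and rely on the members described here for the proteins of cytosol and mitochondria.

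The cells came from islets of larvae at 7 dpf (days post-fertilization), and GFP-positive cells were sorted singly into plates. Control larvae were wild type for the glucagon receptor and carried *Tg(gcga:GFP)*, in which the promoter of the glucagon gene *gcga* drives GFP. The *gcgr-/-* larvae carried the same transgene and were double mutants, *gcgra-/-;gcgrb-/-*, with both glucagon receptor genes disrupted. How many larvae were pooled is not given in the sources used here. There was 1 sample per genotype, so genotype was not tested and its differences carry neither p value nor standard error. Both samples were digested for 5 min at 37 °C and 50 min at 36 °C, from fish kept at 28 °C. No undigested cells were analysed here, and the part of the digestion in chaperone levels was not tested.

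Of 576 sequenced cells, 156 control and 288 *gcgr-/-* cells passed 2 limits, 500 detected genes or more and mitochondrial counts of no more than 10%. They held 4760583 and 10283390 counts, with a median per cell of 22042 in control and 25522.5 in *gcgr-/-*. The cells are labelled α cells, but by the hormone transcript with the most counts (at least 1% of the cell's counts) only 3 control and 106 *gcgr-/-* cells were led by glucagon (*gcga* or *gcgb*). Led by insulin (*ins*) were 41 control and 54 *gcgr-/-* cells, by *sst1.1*, a somatostatin, 36 and 52, and by *sst1.2*, another somatostatin, 29 and 29. No hormone reached the limit in 31 and 27 cells. The remaining 16 control and 20 *gcgr-/-* cells were led by *sst2*, *gip* or *ghrl*. Genotypes are therefore compared within a leading hormone as well as over all cells. Cell-name prefixes were read here as libraries and their first letters as plates, and the sources used here do not state what they mean. So read, there were 8 control libraries (plates A and B) and 16 *gcgr-/-* libraries (plates C to F) of 24 cells each. No library or plate held both genotypes. Library and genotype thus cannot be told apart. The 48 cell barcodes were each used in 12 libraries and were all present in both samples. The disrupted genes gave no check of the labels, since only 2 control cells (13 counts) and 3 *gcgr-/-* cells (23 counts) held any *gcgra*, and *gcgrb* had 1 count in each sample.

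Values below are CPM (a gene's share of counts, scaled to a total of 1000000) of the summed counts of a group of cells unless stated. Ratios have exact 95% intervals that cover counting error only, and PCR copies among the reads make these narrower than they should be. Reads came from the 3′ end of transcripts and were counted on coding sequence, so levels of different genes are not compared.

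The genotypes differed in opposite directions within the chaperones: the inducible Hsp70 genes were lower in *gcgr-/-* cells, whereas nearly all constitutive members were higher. Together the 9 inducible members took 12.96% of all control counts and 9.17% of all *gcgr-/-* counts (ratio 0.707, 0.705 to 0.710). The 16 constitutive members took 0.665% and 1.17% (ratio 1.77, 1.74 to 1.79). Both sums are weighted to the genes with most reads, and the inducible sum to the Hsp70 genes.

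Among all 72 members, 11 were at least 2-fold lower in *gcgr-/-* cells, 15.3% of the members beside 24.9% of all 13594 genes with at least 10 counts. At least 2-fold higher were 27 members, 37.5% beside 34.3% of all such genes. The member counts alone are thus near or under the background. The median ratio was 1.62 over the members and 1.20 over all such genes, with a gene at 0 in 1 sample placed at its bound. Many of the lower members rest on few reads: at 500 counts or more, 2 of 32 members were 2-fold lower (*hsp70.1* and *hsp70.2*) beside 12.7% of genes, and 11 of 32 were 2-fold higher, 34.4% beside 20.7%, with medians of 1.75 and 1.05.

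Inducible cytosolic Hsp70, the chief heat shock chaperone, is counted on *hsp70.1*, *hsp70.2*, *hsp70.3* and *hsp70l*. Control cells had 17270 CPM of *hsp70.1* and *gcgr-/-* cells 3684 CPM, 4.69-fold less, and for *hsp70.2* the values were 27854 and 11519 CPM, 2.42-fold less. In the cells that the authors kept the ratio of *hsp70.2* was 0.561, which is no longer 2-fold. That set has another mix of classes, with 0 of 41 control and 1 of 54 *gcgr-/-* *ins*-led cells. Of the kept cells, 2 of 88 control and 101 of 197 *gcgr-/-* cells were led by glucagon. The part of this mix in the ratio was not tested. *hsp70.3* stood at 9436 and 5308 CPM (ratio 0.562, 0.555 to 0.570), and *hsp70l* at 45067 and 29462 CPM (ratio 0.654, 0.650 to 0.657). All 4 were therefore lower in *gcgr-/-* cells, *hsp70.1* by the most. The first 3 lie next to each other in the RefSeq annotation of zebrafish chromosome 3 (assembly GRCz12tu), and the genes are near copies, so how reads were split between them is uncertain and their sum is the safer measure. That sum, formed after the values were seen, was 9.96% of control and 5.00% of *gcgr-/-* counts (ratio 0.502, 0.4996 to 0.5036).

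The single cells showed that this was not an even shift. Per cell, the 4 Hsp70 genes took 0.0342% of counts at the lowest, 10.7% at the median and 30.1% at the highest in control. In *gcgr-/-* cells the lowest was 0%, the median 2.03% and the highest 32.3%. The highest cells of the genotypes were thus close together, and both genotypes had cells with almost none. The genotypes differed in how many cells were low. Under 2% of counts (a limit chosen after the values were seen) were 7 of 156 control cells, 4.49% (exact binomial 1.82 to 9.03%), and 141 of 288 *gcgr-/-* cells, 49.0% (43.0 to 54.9%). Cells of 1 sample are not replicates, and these intervals do not cover differences between larvae or libraries.

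The low cells were not found equally among the hormone classes. In *gcgr-/-*, the median share of counts was 7.22% in glucagon-led and 7.43% in no-hormone cells, 1.75% in *ins*-led cells, 0.397% in *sst1.2*-led cells and 0.254% in *sst1.1*-led cells. Under 2% were 25 of 106 glucagon-led, 28 of 54 *ins*-led, 40 of 52 *sst1.1*-led and 24 of 29 *sst1.2*-led cells. So were 10 of 27 no-hormone, 4 of 6 *sst2*-led, 8 of 12 *ghrl*-led and 2 of 2 *gip*-led cells. In control the same medians were 11.2% in *ins*-led, 9.65% in *sst1.1*-led, 12.9% in *sst1.2*-led and 8.53% in no-hormone cells, and the 3 glucagon-led cells were at 7.93%, 20.4% and 21.7%. As ratios to each other, though not in percentage points, the control medians of the *ins*-, *sst1.1*- and *sst1.2*-led cells hence lay closer together than in *gcgr-/-*. In control, *sst1.2*-led cells had the highest of these 3. Under 2% in control were 0 of 41 *ins*-led cells (exact binomial up to 8.60%), 1 of 36 *sst1.1*-led cells and 0 of 29 *sst1.2*-led cells (up to 11.9%). Most of the low control cells had no leading hormone (5 of 31 such cells), and 1 of 6 *sst2*-led cells was low.

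**Figure D1:**
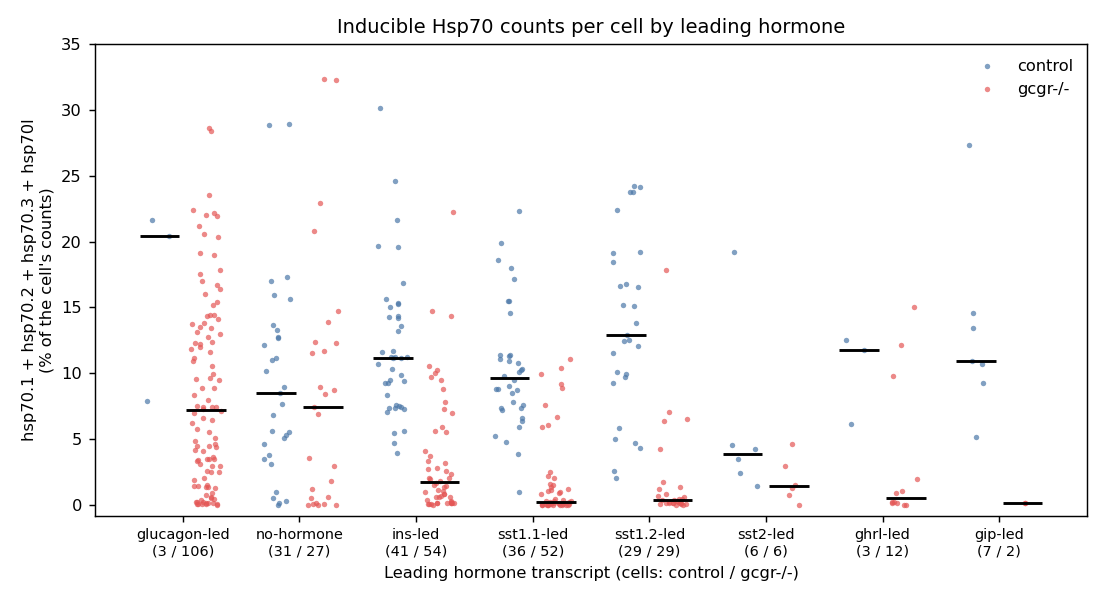
Share of each cell's counts (%) on *hsp70.1*, *hsp70.2*, *hsp70.3* and *hsp70l* together, by leading hormone, with control cells in blue and *gcgr-/-* cells in red; black bars are medians and the numbers of cells stand under each class. Control medians of 11.2% (*ins*-led), 9.65% (*sst1.1*-led) and 12.9% (*sst1.2*-led) stand beside *gcgr-/-* medians of 1.75%, 0.254% and 0.397%, while glucagon-led *gcgr-/-* cells had a median of 7.22%.

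Within *ins*-, *sst1.1*- and *sst1.2*-led cells the genotype difference in inducible Hsp70 was therefore larger than over all cells. In the no-hormone cells, where no hormone reached 1% of counts, the difference lay in the other direction. The ratio of the 4-gene sum was 0.305 in *ins*-led, 0.158 in *sst1.1*-led and 0.107 in *sst1.2*-led cells. In no-hormone cells it was 1.17 (1.16 to 1.18), with *hsp70.1* still lower at 0.497 and *hsp70l* higher at 1.54. The no-hormone cells of the genotypes also differed in other transcripts: 11 epithelial marker genes summed to 23952 CPM in control and 2814 CPM in *gcgr-/-*, and 13 endocrine marker genes to 263 and 2093 CPM. The hormone-led classes differed between genotypes as well. In *sst1.2*-led cells the median depth was 14403 counts in control and 28798 in *gcgr-/-*. The 8 hormone genes took 14.5 and 27.2% of counts there, 24.3 and 14.5% in *sst1.1*-led and 17.5 and 21.6% in *ins*-led cells. The part of these differences in the chaperone values was not tested. In glucagon-led cells the ratio of the 4-gene sum was 0.579 (0.569 to 0.588), from 3 control cells only.

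*hsp70.1* had the lowest ratio of the 4 genes in each of these classes, at 0.147 in *ins*-led, 0.0635 in *sst1.1*-led and 0.0325 in *sst1.2*-led cells. It also took a smaller part of the Hsp70 counts in *gcgr-/-*. Its share of the 4-gene counts ranged over the control libraries from 15.7 to 19.4% (median 17.3%). Over the *gcgr-/-* libraries it ranged from 0.763% (library E1_2) through a median of 7.41% to 15.5% (library F2_1), with the next at 10.9%. The highest *gcgr-/-* library thus lay just under the lowest control library. By leading hormone the share was 15.2 to 20.5% in control and 2.63 to 7.75% in *gcgr-/-*, so the groups did not overlap by class either. The classes come from the same libraries, so this is not separate evidence. How rare such a separation of shares is among other genes was not computed. The split of reads between these near copies is also uncertain. The lowest, of *gip*-led *gcgr-/-* cells, rests on 1 of 38 counts in 2 cells (exact binomial 0.0666 to 13.8%). The share of *hsp70l* was higher in *gcgr-/-*, with a median of 59.202% beside 45.2% in control, but its ranges overlapped (43.7 to 72.9% and 41.0 to 50.0%).

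**Figure D2:**
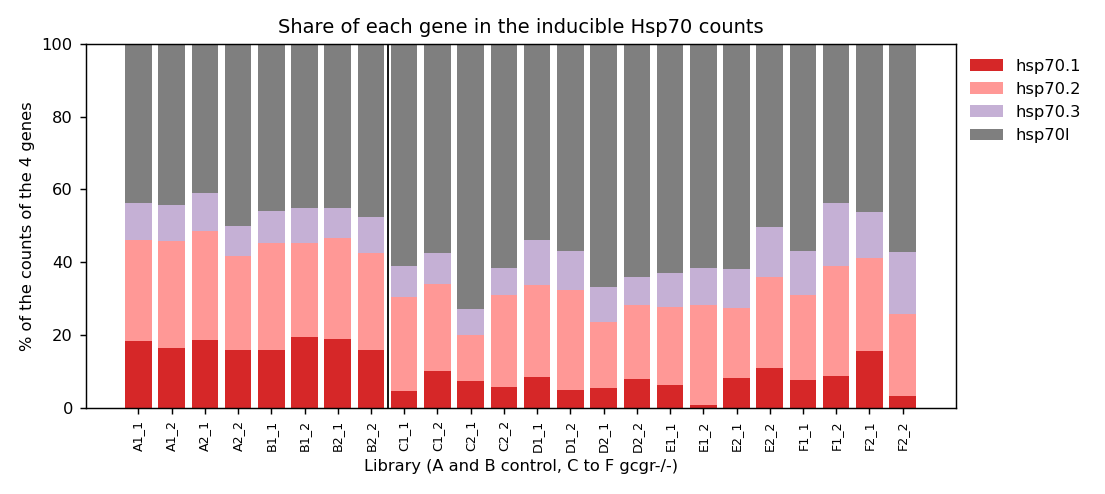
Share (%) of the summed *hsp70.1*, *hsp70.2*, *hsp70.3* and *hsp70l* counts that fell on each gene, with 1 bar per library, control libraries left of the line and *gcgr-/-* libraries right of it. *hsp70.1* made up 15.7 to 19.4% in the 8 control libraries and 0.763 to 15.5% in the 16 *gcgr-/-* libraries. No background share was computed for this separation, and the split of reads between these near copies is uncertain.

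By library, *hsp70.1* ranged from 13842 to 20653 CPM in control and from 188 (E1_2) to 7167 CPM in *gcgr-/-*, and *hsp70.2* from 24943 to 33252 and from 6340 to 21724 CPM. For these 2 of the 72 members every *gcgr-/-* library was below every control library, which was true of 0.0515% of all 13594 genes. *hsp70l* overlapped, at 37658 to 53697 CPM in control and 9128 to 53680 CPM in *gcgr-/-*, with 13 of 16 *gcgr-/-* libraries below all control libraries. *hsp70.3* overlapped as well, with 14 of 16 below. The 4-gene sum did not overlap, at 84843 to 112213 CPM and 20874 to 83416 CPM. The share of all genes given above is for single genes, many with far fewer counts than *hsp70.1* and *hsp70.2*. No such share was computed for sums, for genes with high counts only, or where only some libraries lay apart. *gcgr-/-* libraries were spread 3.996-fold in this sum and control libraries 1.32-fold.

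**Figure D3:**
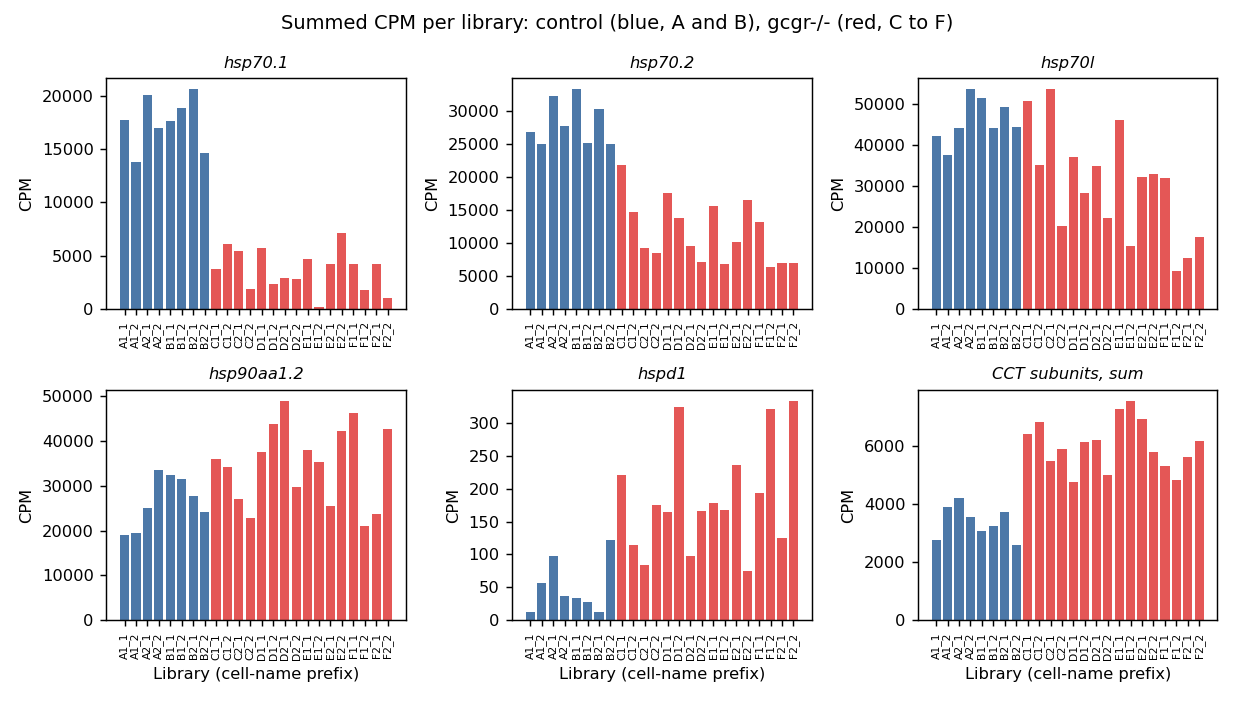
CPM of *hsp70.1*, *hsp70.2*, *hsp70l*, *hsp90aa1.2*, *hspd1* and the sum of 7 CCT genes in each library, 1 bar per library, with control in blue (8 libraries) and *gcgr-/-* in red (16 libraries). *hsp70.1*, *hsp70.2* and the CCT sum did not overlap between the genotypes, whereas *hsp70l*, *hsp90aa1.2* and *hspd1* did. No background share was computed for the sum.

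Of the other 5 inducible members, *dnajb1b* was lower in *gcgr-/-* like Hsp70, and the remaining 4 had ratios above 1. *hsp90aa1.2*, the cytosolic Hsp90 with the most counts, stood at 25519 CPM in the control and 35006 CPM in the *gcgr-/-* sample (ratio 1.37, 1.36 to 1.38). Its libraries overlapped, at 19047 to 33414 and 20998 to 48872 CPM. Its ratio was 1.14 in *ins*-led and 2.43 in no-hormone cells, but 0.752 in *sst1.1*-led and 0.801 in *sst1.2*-led cells, so its direction depended on the class. *hspb1*, the small heat shock protein Hsp27, was at 3298 and 5863 CPM (ratio 1.78), with class ratios from 0.470 in *sst1.2*-led to 5.06 in no-hormone cells. Its median over cells was 267 CPM in control and 232 CPM in *gcgr-/-*, and its highest cells were at 76206 and 149154 CPM, so the higher sum lay in the upper cells and not in the middle of the distribution.

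*dnajb1b*, the J-protein partner of inducible Hsp70, was lower in *gcgr-/-*, at 1072 and 729 CPM (ratio 0.680, 0.656 to 0.705). Its ratio was under 1 in each of the classes compared, from 0.164 in *sst1.2*-led to 0.921 in no-hormone cells, where the interval of 0.833 to 1.02 held 1. Its paralogue *dnajb1a* was at 48.1 and 51.9 CPM (ratio 1.08, 0.923 to 1.27), and the ratio was 2.21 in the cells that the authors kept and 2.01 with cells thinned to 5000 counts. *hsp90aa1.1*, known in zebrafish for the folding of muscle myosin, was at 19.5 and 40.9 CPM. That difference rested on library C1_1, at 343 CPM, and the ratio of 2.10 was 1.02 without it, and 3.58 without control plate B.

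Of the 16 constitutive members, 15 had ratios above 1, beside 55.7% of all genes (52.8% of genes at 500 counts or more, which 13 of the 16 reached). At 2 or more were 6 of 16, close to the 34.3% of all genes, and none was 2-fold lower, beside 24.9%. The lowest ratio was that of *cct5* (0.955, 0.904 to 1.01) and the median 1.75. *hspa8*, the housekeeping cytosolic Hsp70, stood at 609 CPM in the control and 920 CPM in the *gcgr-/-* sample (ratio 1.51), and *hsp90ab1*, the housekeeping Hsp90, at 1426 and 2498 CPM (ratio 1.75). Per cell, the median of *hsp90ab1* was 1097 CPM in control and 2318 CPM in *gcgr-/-*, and that of *hspa8* 494 and 852 CPM, so for both genes the middle of the distribution was higher and not only a few cells. *stip1*, the link between Hsp70 and Hsp90, was at 165 and 453 CPM (ratio 2.75, 2.55 to 2.97). 13 of the 16 *gcgr-/-* libraries were above all control libraries in *hspa8* and in *hsp90ab1*, and 7 of 16 in *stip1*.

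The CCT genes were counted for 7 of the subunits, and their sum was 3451 CPM for control against 6072 CPM for *gcgr-/-* (ratio 1.76, 1.73 to 1.79). *cct2* (2.12) and *cct3* (2.10) were past 2-fold, *cct4* (1.91), *cct6a* (1.74), *cct8* (1.62) and *cct7* (1.59) were higher by less, and *cct5* was not. Neither stayed past 2-fold throughout, with *cct2* at 1.94 in the cells that the authors kept and 1.97 without plate E, and *cct3* at 1.87 without library F1_1, 1.93 without plate B and 1.71 without plate F. The sum ranged from 2605 to 4221 CPM over the control libraries and from 4746 to 7543 CPM over the *gcgr-/-* libraries, without overlap. No single member had all *gcgr-/-* libraries above all control libraries, beside 0.125% of all genes. *cct2* came nearest, with 15 of 16. The sum of all constitutive members did not overlap either, at 5409 to 7758 CPM and 9455 to 14009 CPM. No share was computed for sums of other genes, so how rare such a separation of sums is was not tested.

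In mitochondria, *hspd1* (Hsp60) had a ratio of 3.44 (3.02 to 3.95), from 52.5 CPM for control to 181 CPM for *gcgr-/-*, and its cochaperonin *hspe1* (Hsp10) a ratio of 1.75 (1.69 to 1.81), from 849 to 1485 CPM. The libraries of *hspd1* ranged from 13.1 to 122 CPM in control and from 75.4 to 333 CPM in *gcgr-/-*, with 12 of 16 above all control libraries, and 14 of 16 were above in *hspe1*. *hspa9*, the mitochondrial Hsp70 that also draws proteins in, was at a ratio of 1.16 (1.01 to 1.34) and turned to 0.891 without control plate A, to 0.996 without library A2_1 alone and to 0.871 in the cells that the authors kept. Of the 7 members listed as mitochondrial 3 were 2-fold higher (*hspd1*, *dnaja3b* and *dnajc15*) and none 2-fold lower, beside 34.3 and 24.9% of genes. *dnaja3b* had 2 and 17 counts, and its interval of 0.934 to 35.1 held 1. *dnajc19* had the lowest ratio, 0.578.

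The Hsp110 genes, exchange factors for Hsp70, had ratios of 2.92 to 3.82: *hspa4a* went from 426 to 1260 CPM (2.95), *hspa4l* from 114 to 376 CPM (3.30), *hsph1* from 137 to 400 CPM (2.92) and *hspa4b* from 4.20 to 16.0 CPM (3.82). All 4 were past 2-fold, beside 34.3% of all genes with at least 10 counts and 20.7% of those with at least 500. Of the 165 *hspa4b* counts in *gcgr-/-*, 86 came from 1 cell. The size depended on which control plate was used: without plate A the ratio was 1.83 for *hspa4a*, 2.05 for *hspa4l* and 1.39 for *hsph1*, and without plate B it was 4.69, 5.19 and 8.54. The control libraries of the 4-gene sum were accordingly wide apart, at 268 to 479 CPM on plate A and 539 to 1671 CPM on plate B, beside 1356 to 3163 CPM in *gcgr-/-*, and they overlapped. In *sst1.2*-led cells the sum did not differ beyond counting error (0.963, 0.888 to 1.05), while it was 2.76 in *ins*-led and 4.67 in *sst1.1*-led cells. *hspbp1*, another exchange factor for Hsp70, had a ratio of 1.99 over all cells, with 2.96 in no-hormone, 2.33 in glucagon-led, 1.14 in *ins*-led, 0.601 in *sst1.1*-led and 0.354 in *sst1.2*-led cells.

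**Figure D4:**
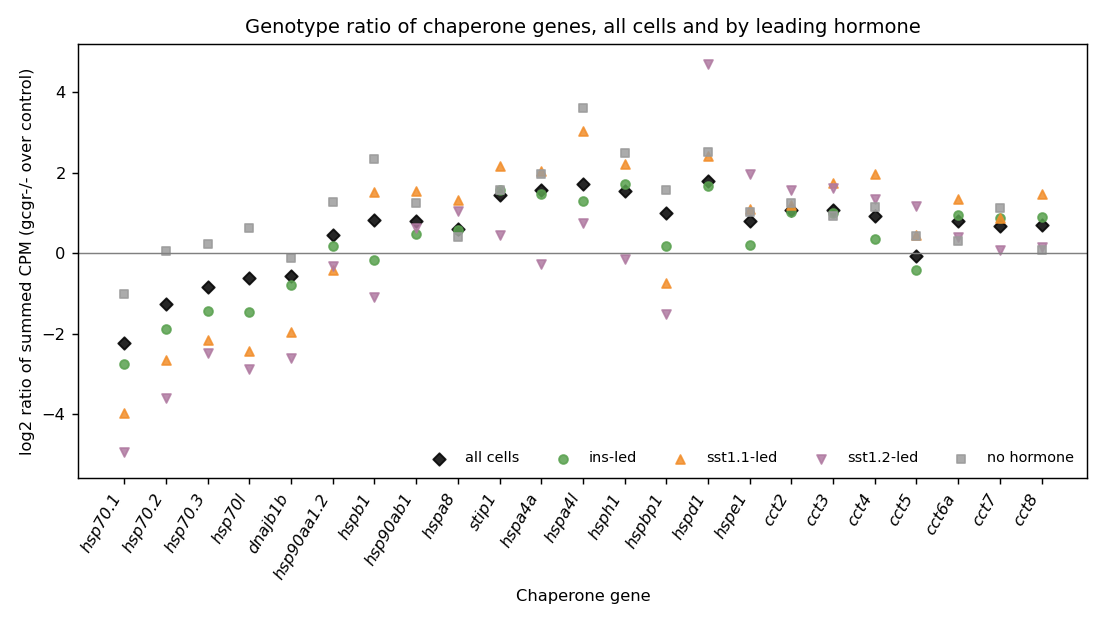
Log2 ratio of summed CPM, *gcgr-/-* over control, for 23 chaperone genes over all cells (black diamonds) and within *ins*-led, *sst1.1*-led, *sst1.2*-led and no-hormone cells; 0 is no difference. The 4 *hsp70* genes lie below 0 except for *hsp70.2*, *hsp70.3* and *hsp70l* in no-hormone cells. Above 0 in all the groups drawn are *hsp90ab1*, *hspa8*, *stip1*, *hspa4l*, *hspd1*, *hspe1* and the CCT genes other than *cct5*.

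Within each class compared the constitutive sum was higher in *gcgr-/-*, whereas the direction of the inducible sum was not the same in all. Ratios were not computed for *sst2*-, *gip*- and *ghrl*-led cells. The constitutive sum had a ratio of 1.498 in *ins*-led, 2.63 in *sst1.1*-led, 1.91 in *sst1.2*-led, 1.96 in no-hormone and 1.69 in the glucagon-led cells. The inducible sum had ratios of 0.493, 0.319, 0.248, 1.49 and 0.685. Counted over members, 17 of 59 were 2-fold lower and 23 higher in *ins*-led cells, beside 31.6 and 38.1% of all genes tested there. The counts were 14 and 27 of 53 in *sst1.1*-led cells (27.8 and 43.1% of genes), 14 and 18 of 46 in *sst1.2*-led cells (31.1 and 36.6%), and 8 and 25 of 46 in no-hormone cells (33.3 and 43%). In the *ins*- and *sst1.2*-led cells the members were thus called about as often as other genes. All 4 inducible Hsp70 genes were among the members 2-fold lower in *ins*-, *sst1.1*- and *sst1.2*-led cells. In glucagon-led cells (3 of them control) *hsp70.1* alone was, at 0.224. *hspd1* had 4 counts in control *sst1.2*-led cells, and its ratio there of 25.8 has an interval of 9.99 to 95.5.

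The leading hormones were also compared within the *gcgr-/-* sample, where library and genotype are shared. Glucagon-led cells had more inducible chaperone counts than *ins*-led cells, with ratios of 2.78 for *hsp70l*, 2.58 for *hsp70.1*, 2.49 for *dnajb1b*, 2.22 for *hspb1*, 2.14 for *hsp70.2* and 2.07 for *hsp70.3*. All 9 inducible members had ratios above 1, with *hsp90aa1.2* lowest at 1.39. For the constitutive members the median ratio was 0.875, and 4 of 16 were above 1, as were 56.8% of all genes and 49% of genes at 500 counts or more. Over all members 24 of 65 were 2-fold higher and 12 lower, beside 37.2 and 24.4% of genes. At 500 counts or more 8 of 25 were higher, 32% beside 16.6%, and 1 (*dnajc1*) lower, beside 10.5%.

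The class difference in Hsp70 had the same direction in most libraries. Some libraries held very few cells of a class, and the libraries of a genotype come from 1 sample. In the 15 *gcgr-/-* libraries with both kinds of cell, the 4-gene sum was higher in glucagon-led than in *ins*-led cells in 13, with F1_2 and F2_2 the exceptions. It was higher in glucagon-led than in *sst1.1*-led cells in 15 of 15 libraries and than in *sst1.2*-led cells in 12 of 14. The constitutive sum was higher in glucagon-led than in *ins*-led cells in 5 of 15 libraries, and than in *sst1.1*-led cells in 2 of 15. In control, with too few glucagon-led cells, the 4-gene sum was higher in *ins*-led than in *sst1.1*-led cells in 4 of 8 libraries, and in *sst1.2*-led than in *sst1.1*-led cells in 7 of 8 (all but B2_2; ratio 1.44). Over the members, 22 of 63 were 2-fold higher and 12 lower in glucagon-led than in *sst1.1*-led *gcgr-/-* cells (33.3 and 28.3% of genes), and 17 of 56 higher and 14 lower in *ins*-led than in *sst1.1*-led control cells (36 and 29.9% of genes). The shares of members 2-fold apart were thus close to or below those of all genes.

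Across single cells *hsp90aa1.2* and *dnajb1b* went with inducible Hsp70, whereas *hspb1* did so weakly, and *hsp90ab1* and *hspa8* hardly or not at all. The CCT sum hardly did so in control and had a weak inverse relation over *gcgr-/-* cells. Every cell was thinned to 5000 counts, with 1 control and 3 *gcgr-/-* cells of lower depth left out, and cells share libraries within each sample. Spearman's rho of *hsp90aa1.2* with the Hsp70 sum was 0.66 over 155 control cells and 0.69 over 285 *gcgr-/-* cells. It was 0.44 and 0.75 for *dnajb1b*, 0.15 and 0.52 for *hspbp1*, 0.32 and 0.21 for *hspa4a*, and 0.23 and 0.16 for *hspb1*. For *hsp90ab1* it was 0.03 and -0.08, for *hspa8* 0.00 and -0.09 and for the CCT sum 0.05 and -0.18. Within the 105 glucagon-led *gcgr-/-* cells the values were 0.57 for *hsp90aa1.2*, 0.67 for *dnajb1b*, 0.42 for *hspbp1*, 0.33 for *hspa4a*, 0.00 for *hspb1*, -0.14 for *hsp90ab1* and -0.03 for the CCT sum. The relation with *hsp90aa1.2* and *dnajb1b* was thus also seen within 1 hormone class, and that with *hspb1* was not.

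*gcgr-/-* cells under 2% of Hsp70 counts were also set beside those at 2% or more. *hsp90aa1.2* was at 19863 CPM in the 141 low cells and 49212 CPM in the other 147, *dnajb1b* at 135 and 1286 CPM and *hspbp1* at 123 and 706 CPM. The groups also differed in hormone, with 25 of the 141 low cells and 81 of the other 147 led by glucagon. Among the glucagon-led cells alone, *hsp90aa1.2* was at 24426 CPM in the 25 low and 50662 CPM in the 81 other cells, *dnajb1b* at 81.6 and 1546 CPM and *hspbp1* at 221 and 898 CPM. Over all *gcgr-/-* cells, *hsp90ab1* was at 2520 and 2477 CPM and *hspd1* at 187 and 175 CPM, values that lie close together, and the CCT sum was at 6750 and 5436 CPM. The median depth of the low and the other cells was 23829 and 27471 counts, with 954 and 1032 detected genes and 1.76 and 1.52% mitochondrial counts. The part of depth in these differences was not tested.

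The J-proteins not listed here under the endoplasmic reticulum or mitochondria formed the largest group and had mostly low counts. The group is a remainder, and some of its genes may belong to those places. Of its 27 members, 8 were 2-fold higher and 5 lower, beside 34.3 and 24.9% of genes. Ratios ran from 0.134 to 6.68, without *dnajb13*, which had 11 counts in 1 control cell and 0 in *gcgr-/-*. *dnaja1* and *dnaja2a*, constitutive partners of cytosolic Hsp70, had ratios of 1.06 (0.831 to 1.37) and 2.63 (2.04 to 3.43), the latter 1.36 with cells thinned to 5000 counts. The ratio of *dnaja1* was 0.586 without plate E and 1.97 without plate B. *dnaja2b* had a ratio of 2.53, but its 15 control counts came from 1 cell, and the ratio was 10.2 without library A1_2, 1.58 without plate B and 1.73 without plate E. *dnajc5aa*, a cysteine string protein known in mammals to sit on secretory vesicles, was at 165 and 142 CPM (ratio 0.859, 0.787 to 0.938), and the ratio was 1.29 without library A1_2 and 1.01 without plate D. By class its genotype ratio ran from 0.138 in *sst1.2*-led to 19.3 (3.44 to 762) in glucagon-led cells, with only 3 control cells there. In no-hormone cells it was 13.7. Within *gcgr-/-* its ratio was 6.46 in glucagon-led over *ins*-led cells and 0.757 over *sst1.1*-led cells.

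The 10 J-proteins listed under the endoplasmic reticulum went both ways, with 5 at 2-fold higher and 2 lower, beside 34.3 and 24.9% of genes. At the ends were *dnajb9b* and *dnajb12b*. *dnajb9b* had 77 counts in 8 control cells and 0 in *gcgr-/-* (ratio 0.0180 at a floor of 3 counts over the sample, interval up to 0.0227). *dnajb12b* had 1 count in control and 45 in 4 *gcgr-/-* cells (ratio 20.8, 3.55 to 841). *dnajb11*, a cofactor of *hspa5*, had 18 counts, in 6 cells, in the control sample and 516, in 21 cells, in the *gcgr-/-* sample. These genes were named as the ends of a range or for their counts, after their values were seen. Of the other small heat shock protein that reached 10 counts, *hspb9*, 32 control counts came from 1 cell.

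Further genes of the heat shock response and of chaperone assistance were taken from a list of 52, of which 44 reached 10 counts and 5 were at 0. At least 2-fold lower in *gcgr-/-* were 6 of the 44 and higher 16, beside 24.9 and 34.3% of genes. The polyubiquitin genes listed as *ubb* and *UBB*, which are near copies, were at 3521 and 1443 CPM (ratio 0.410) and at 2251 and 596 CPM (ratio 0.265). *ubc*, another polyubiquitin gene, was at 774 and 998 CPM. *tcp1*, which encodes a further CCT subunit, was at 549 and 1058 CPM (ratio 1.93), *hsf2*, a heat shock factor, at 146 and 280 CPM, and *chordc1a*, a partner of Hsp90, at 91.8 and 208 CPM. *hsf1*, the chief heat shock factor, named after its values were seen, was found in 4 control cells (5 counts) and in 23 *gcgr-/-* cells (235 counts), with a ratio of 21.8 (9.19 to 67.6).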

How the data were processed

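Per the methods, the authors took poly T tails and (with Trim Galore) adapters off the reads, and used STAR for alignment to GRCz11 and featureCounts for counting over coding sequence (versions not given in the sources used here). The deposited values are unnormalized counts of reads, for each gene in each cell, from 3′ end libraries made with a modified Smart-seq2 protocol. Primers carried molecular identifiers, but no step that collapsed them is stated. Reads of near-identical genes may have been split or lost. For each of the 2 samples the authors deposited a table of all sequenced cells, used here, and a table of the cells they kept, whose counts are the same. The tables were joined by row position, since 17 gene names are spelled differently between them.

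Counts were summed over cells with 500 detected genes or more and no more than 10% of counts on mitochondrial genes, and expressed as CPM. Depth was 3834 to 162322 counts per control cell and 2231 to 286288 per *gcgr-/-* cell. Ratios have exact conditional Poisson intervals, and shares of cells exact binomial (Clopper-Pearson) intervals, both at the 95% level. For a gene at 0, bounds used 3 counts per sample as the floor (0.630 CPM in control and 0.292 CPM in *gcgr-/-*). Genes named were the 9 inducible and 16 constitutive members, the 5 other members with the highest CPM, and the 5 highest and 5 lowest ratios where the higher sample had 100 CPM or more and the lower one 10 counts or more, 30 genes in all. Members and lists were chosen with earlier results of these data known. The calculation was tested on simulated counts that had counting error only. That test does not cover spread between cells or libraries, or PCR copies. All 72 symbols matched the RefSeq gene table.

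Alternatives were totals without the 8 hormone genes, means of per-cell CPM, thinning to 5000 counts, the cells the authors kept, all sequenced cells, at least 750 genes or 10000 counts per cell, other count minimums (any count, 50), a hormone limit of 5%, lists without *hsp70.1* or *hspa8*, no top cell, and each library or plate left out. The Hsp70 sum, and totals without the hormone genes and the members, were chosen after seeing the data. Python 3.11.15 was used with numpy 2.4.6, pandas 2.3.3, scipy 1.17.1 and matplotlib 3.10.9.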

Additional observations from a re-analysis of the deposited data

How the results depend on the processing

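No paired analysis was possible because each genotype is 1 sample. For the named genes the alternatives were run over all cells pooled and not within a leading hormone. Within classes more of these genes changed direction, among them *hsp70l*, *hsp90aa1.2*, *hspb1*, *hspbp1* and *hspa4a*. Directions held under every alternative run except for 5 of the 30 named genes. These were *hspa9*, *dnajc5aa*, and *cct5*, *dnaja1* and *dnajb1a*. The intervals of the last 3 held 1 (ratios 0.955, 1.06 and 1.08), and they reached 1.09, 0.586 and 0.805 at the farthest beyond 1. The ratio of *hspa9* was 1.16 and became 0.871 in the cells the authors kept, 0.996 without library A2_1 and 0.891 without plate A (leave-one-out 0.891 to 1.42), and that of *dnajc5aa* was 0.859 and became 1.29 without library A1_2 and 1.01 without plate D (leave-one-out 0.729 to 1.29). The inducible ratio of 0.707 was 0.742 with totals without the hormone genes, 0.664 as a mean of per-cell CPM, 0.667 thinned, 0.834 in the kept cells, 0.754 at 750 genes, 0.712 at 10000 counts, 0.783 without *hsp70.1* and 0.715 with totals without the hormone genes and the members. Leave-one-out values ran from 0.673 to 0.755. The constitutive ratio of 1.77 was 1.85, 1.91, 1.95 and 1.82 under the first 4 of these, 1.80 without the top cells and 1.79 without *hspa8*, and leave-one-out values ran from 1.70 to 1.82. In *ins*-led cells the inducible ratio of 0.493 was 0.519, 0.471 and 0.465 under the first 3, 0.499 at 750 genes, 0.504 at the hormone limit of 5% and 0.539 without *hsp70.1* (leave-one-out 0.443 to 0.558). For glucagon-led over *ins*-led *gcgr-/-* cells the ratio of 1.97 was 1.996 with totals without the hormone genes, 1.99 thinned, 1.96 in all sequenced cells, 2.01 at 750 genes, 1.76 at the limit of 5%, 2.03 without the top cells and 1.95 without *hsp70.1* (leave-one-out 1.63 to 2.41). The Hsp70 sum ran from 0.473 to 0.646 over all cells, 0.291 to 0.321 in *ins*-led cells and 2.33 to 2.72 between the classes, with leave-one-out ranges of 0.457 to 0.556, 0.243 to 0.365 and 1.92 to 3.20. Members 2-fold lower numbered 9 to 16 and higher 21 to 30, and 9 to 13 and 23 to 32 in leave-one-out. The cause of these differences was not tested. The cells the authors kept include almost no *ins*-led cells, so their mix of classes differs from that of all cells. With 1 sample per genotype, depth limits the members under 500 counts, most of which were seen in few cells.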
